A study of Mus musculus with 7 samples.

Results

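The labial cervical loop is the epithelial pocket at the growing end of the mouse incisor, on the lip side. Its baseline transcriptome was described from the 3 control bead arrays of a series of 7 arrays. A probe was kept when its deposited detection p-value was under 0.05 on all 3 control arrays, and genes were ranked by the mean log2 of the deposited intensity. This left 12445 of 25697 probes, or 48.4%. Counted by gene symbol, 9079 of 18138 genes, or 50.1%, had at least 1 such probe. Counts of detected members in a list or family are to be read against this share. A further 6600 genes had no probe that was detected on any control array.

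The control mice are labelled Yap/Tazf/f, floxed alleles of both genes, with no mention of K14CreER, the tamoxifen-activated recombinase by which the other mice of the series delete these alleles in keratin 14-positive epithelium. They were 8 weeks old, were injected with 5 mg of tamoxifen on 2 consecutive days, and the loops were taken 48 hours after the second injection. The baseline is therefore that of tamoxifen-treated adult tissue. The labels do not say whether the 3 samples came from separate animals or from pools, and the SD given below measures the spread between these samples. The other 4 arrays of the series were not used.

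The mouse incisor grows throughout life. Epithelial stem cells in the outer layer and core of the labial cervical loop supply transit amplifying cells, which divide, move towards the tip and mature into ameloblasts, the cells that secrete and mineralise enamel. The stratum intermedium and stellate reticulum are the non-secretory epithelial layers beside them, and the surrounding dental mesenchyme contains the odontoblast lineage, vessels, nerves and blood-derived cells.

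Levels are given as normalised log2 intensity, the deposited intensity after background correction, an offset of 16 and quantile normalisation of the 3 arrays. Errors are SDs with n = 3 arrays throughout. On this scale the dimmest probe called detected on an array lay between 4.36 and 4.40, so a value near 4.4 is close to the limit of detection. A gene with several probes is represented by its brightest one, and for 13 of the 9079 genes, all at or below the 7.41 percentile, that probe was itself detected on only 2 arrays while a dimmer one passed on all 3. A percentile is the rank of the gene's probe brightness among the 9079 detected genes. Probes differ in how well they bind, so neither scale orders the transcript amounts of different genes.

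The arrays had similar numbers of detected probes and beads. Each array detected 13767 to 14370 probes, the median intensity was 80.8 to 85.6, and the median number of beads per probe was 31 to 36. Over the 12445 detected probes, Pearson's r across probes was 0.982 between replicates 1 and 2, which shared a chip. It was 0.984 and 0.985 between each of those and replicate 3, on the other chip.

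Of the 6 genes chosen to check the label, all 6 were detected on all 3 arrays, where 50.1% of all genes were. Krt14, a keratin of basal epithelial cells, read 9.89 in replicate 1, 9.86 in replicate 2 and 9.87 in replicate 3. Shh, the hedgehog ligand made by the transit amplifying epithelium and early ameloblast lineage, read 10.38, 10.38 and 10.62 in the same order. Both lay above the 99th percentile. The Krt14 SD was 0.02 and that of Shh 0.14, against a median of 0.124 over detected genes, and a second Shh probe read 9.06, 9.13 and 9.60, again highest in replicate 3.

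Amelx, which encodes the main enamel matrix protein amelogenin, read 8.06, 8.24 and 7.99. Ambn, which encodes the enamel matrix protein ameloblastin, read 6.07, 6.39 and 5.93. Both were highest in replicate 2 and lowest in replicate 3, and the 2 genes lay at the 92.1 and 57.6 percentiles.

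Sox2, a transcription factor of the incisor epithelial stem cells, read 6.38, 6.06 and 6.31. Sfrp5, a secreted Wnt inhibitor of the cervical loop epithelium, read 6.42, 5.79 and 6.02. The Sfrp5 SD of 0.32 was above 0.277, the 95th percentile of SD over detected genes, which 5% of them exceed by construction. A second Sox2 probe was detected on 1 array only, at a mean of 4.36.

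**Figure D1:**
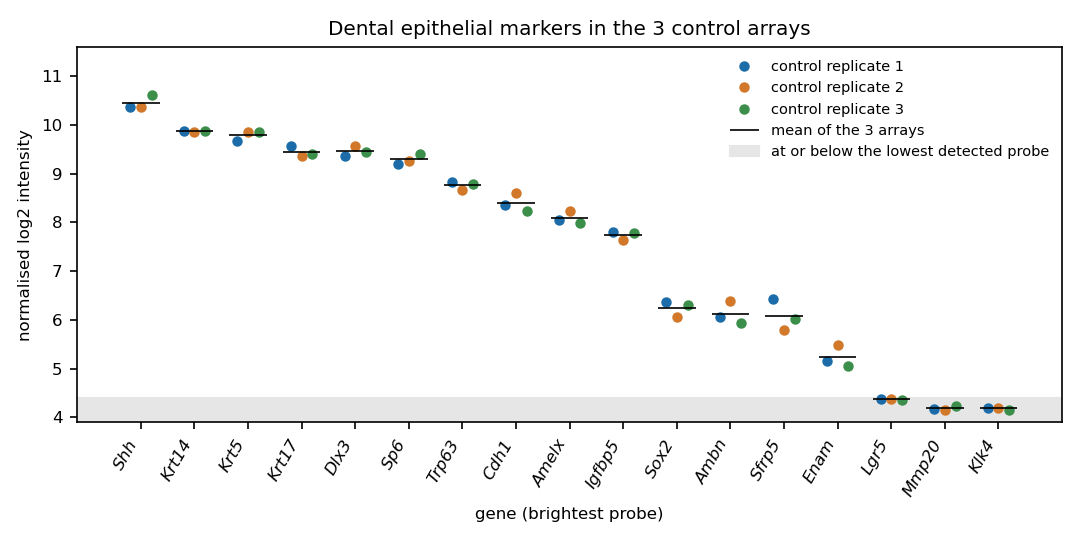
Normalised log2 intensity (y axis) of dental epithelial markers on each of the 3 control arrays, with 1 point per array, a bar at the mean and a grey band up to the limit of detection. Krt14 and Shh lie near 10 and Amelx near 8, Ambn, Sfrp5 and Sox2 lie near 6, and Lgr5, Mmp20 and Klk4 lie in the band.

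The upstream sequences of marker genes, and of Krt5, are shown because these genes cover the basal keratin, stem cell and enamel programmes. Each is the 100 bases before the RefSeq gene start on GRCm38.p6, read 5′ to 3′ on the strand of the gene. Capitals mark each CG and, in Amelx, the TATAA searched for on both strands. Krt14 and Shh are named only.
Amelx, chrX:169187210-169187309, minus strand: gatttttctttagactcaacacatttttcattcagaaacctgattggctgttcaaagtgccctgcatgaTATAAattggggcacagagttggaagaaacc
Ambn, chr5:88455891-88455990, plus strand: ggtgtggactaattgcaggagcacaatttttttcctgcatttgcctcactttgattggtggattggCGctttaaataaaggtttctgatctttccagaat
Krt5, chr15:101712906-101713005, minus strand: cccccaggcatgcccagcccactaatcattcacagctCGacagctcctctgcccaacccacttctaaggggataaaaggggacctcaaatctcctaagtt
Sfrp5, chr19:42202253-42202352, minus strand: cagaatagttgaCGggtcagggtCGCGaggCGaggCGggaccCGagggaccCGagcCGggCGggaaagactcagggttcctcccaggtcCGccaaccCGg
Sox2, chr3:34649895-34649994, plus strand: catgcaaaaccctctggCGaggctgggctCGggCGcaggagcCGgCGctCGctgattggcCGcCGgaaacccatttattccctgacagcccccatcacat

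The Amelx stretch held no CG and a TATAA that starts 31 bases before the gene start. The Ambn and Krt5 stretches held 1 CG each, against 8 for Sox2 and 11 for Sfrp5. Over the 32851 windows of the RefSeq table the median was 3, and 10.2% held TATAA on either strand. These counts describe the letters shown and no binding was measured.

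Markers of oral and dental epithelium were detected in full. All 14 of the 14 measured genes of the list were detected, against the 50.1% of all genes, and 7 of them lay in the brightest 10% of detected genes. Their median percentile among detected genes was 90.3.

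The basal keratin pair of Krt14 was present too. Krt5, the partner with which Krt14 forms filaments, read 9.68, 9.85 and 9.86. Krt17 had a mean of 9.45 ± 0.10, and Trp63, the master transcription factor of stratified epithelium, 8.76 ± 0.09. Cdh1, which encodes the adhesion protein E-cadherin, had a mean of 8.40 ± 0.19. Sfn was the dimmest of the list, at 5.54 ± 0.09.

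Of 12 stem and progenitor genes, 11 were detected, against the 50.1% of all genes, with a median percentile of 69.9. Isl1, a LIM homeobox factor of incisor epithelium, had a mean of 8.64 ± 0.14, and Tbx1, a T-box factor that early dental epithelium needs, 8.02 ± 0.19. Igfbp5, a binding protein of insulin-like growth factors, had a mean of 7.74 ± 0.08. Bmi1, a polycomb protein that maintains incisor stem cells, read 6.08, 5.89 and 5.45, with an SD of 0.32. Lgr5, a Wnt-pathway receptor and stem cell marker of many epithelia, was the member not detected throughout, and passed on 1 array.

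Of 8 measured genes for hedgehog signalling and the transit amplifying zone, 6 were detected, against the 50.1% of all genes. Their median percentile was 67.8. Besides Shh, Ccnd1, the cyclin that drives entry into the cell cycle, had a mean of 9.45 ± 0.14. Among components that receive the signal, Gli1, the transcription factor that hedgehog induces, had a mean of 6.65 ± 0.12, Smo, the signal transducer, 6.46 ± 0.10, and Ptch1, the receptor, 6.04 ± 0.18. Hhip, a hedgehog-binding inhibitor, was detected on no array.

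The ameloblast list was detected in part, with 7 of 12 genes, near the 50.1% of all genes, and a median percentile of 77.5. Its transcription factors were its brightest members. Dlx3 read 9.36, 9.57 and 9.45, and Sp6, known as epiprofin, 9.21, 9.26 and 9.41. Both are needed for normal enamel. The matrix gene Enam, which encodes enamelin, lay lower, at 5.15, 5.48 and 5.07.

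Several genes of later enamel formation were at the limit of detection. Mmp20 and Klk4, the proteases that process and remove enamel matrix during secretion and maturation, were detected on no array. The same held for Slc24a4, an ion exchanger, and Wdr72, both needed in maturation. Dspp, a dentin matrix gene that early ameloblasts express briefly, was detected on 1 array. Cftr, a chloride channel of maturing ameloblasts, was detected on all 3 arrays but varied widely, at 5.05, 6.06 and 5.60. Itgb6, an integrin of ameloblasts, read 6.81, 7.44 and 6.81.

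All 10 genes of the stratum intermedium and stellate reticulum list were detected, with a median percentile of 67.0. Gja1, which encodes the gap junction protein connexin 43, was the brightest at 10.11, 10.40 and 10.38. The Notch pathway, which signals between neighbouring cells, was represented at several steps. The ligand Jag1 had a mean of 7.59 ± 0.20, the receptor Notch1 6.24 ± 0.10, and the targets Hey1 and Hes1 7.41 ± 0.17 and 4.94 ± 0.11. Akp2, the alkaline phosphatase by which the stratum intermedium is stained, had a mean of 6.81 ± 0.16.

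Dental mesenchyme genes were detected at the rate of all genes, 10 of 20. The detected members had a median percentile of 42.6. Pdgfra, a receptor of platelet-derived growth factor on mesenchymal cells, read 8.51, 8.30 and 8.00, and Sparc, a matrix protein, had a mean of 8.05 ± 0.24. Tnc, which encodes the matrix protein tenascin C, had a mean of 7.22 ± 0.03. Thy1, a surface protein of fibroblasts and lymphocytes, read 7.59, 6.94 and 6.71, with an SD of 0.45, and replicate 1 was the highest.

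The general mesenchymal genes were dim. Vim, the intermediate filament vimentin, read 5.41, 5.11 and 5.71, with an SD of 0.30. Col1a1 had a mean of 5.02 ± 0.24, Col1a2 of 5.83 ± 0.06, and Col3a1 was detected on 2 arrays at a mean of 4.35. Twist1, Msx1, Fgf3, Fgf10, Postn, Lhx8 and Pax9 were detected on no array. Among these, Msx1 and Pax9 are transcription factors of tooth mesenchyme, and Fgf3 and Fgf10 are its growth factor signals to the epithelium.

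Of 13 odontoblast and osteoblast genes, 5 were detected. Sp7, the transcription factor osterix, read 5.40, 6.23 and 5.98, and Bglap2, which encodes osteocalcin, 5.34, 5.78 and 4.88. Both SDs, 0.42 and 0.45, were above the 95th percentile of all detected genes. Dmp1 and Spp1, matrix genes of mineralising cells, were detected on no array. Dspp was detected on 1 array.

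Endothelial genes were mostly undetected, with 2 of 14 detected and 11 on no array. The defining genes Pecam1, Cdh5 and Kdr were among those 11. Cldn5, a tight junction protein of endothelium, had a mean of 4.95 ± 0.09, and Egfl7 of 5.10 ± 0.09. The mean over all 14 measured genes was 4.33 to 4.37 on the 3 arrays, at the limit of detection.

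Of 11 genes for vessel mural cells and smooth muscle, 6 were detected, close to the rate of all genes. Acta2, smooth muscle actin, read 8.02, 7.64 and 7.67, and Mcam, an adhesion molecule, had a mean of 6.99 ± 0.15. Pdgfrb, Myh11, Des and Cnn1, which define pericytes and smooth muscle, were detected on no array.

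Nerve was represented by few genes. Schwann cell genes were detected at the rate of all genes, 5 of 10. Ngfr, the low-affinity neurotrophin receptor, read 8.57, 8.56 and 8.27, and Pmp22, a myelin protein that other cells also make, had a mean of 6.09 ± 0.04. Mbp, which encodes myelin basic protein, had a mean of 5.38 ± 0.17. Of 10 neuronal genes, Tubb3 and Calca were detected, at 4.89 ± 0.19 and 4.46 ± 0.10.

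Of 18 macrophage and leukocyte genes 8 were detected, near the 50.1% of all genes. Their median percentile was 30.2, and the mean over all 18 was 4.90, 4.69 and 4.78 on the 3 arrays. Laptm5, a lysosomal membrane protein of blood cells, read 6.42, 5.73 and 6.10, and Tyrobp, a signalling adaptor of myeloid cells, 6.31, 5.91 and 5.80. Csf1r, the receptor that macrophages depend on, was detected on no array, and Ptprc, the pan-leukocyte gene, on 1.

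Red cell genes were at the limit, with 1 of 10 detected, Eraf, at 4.61 ± 0.06. Hba-a1, which encodes alpha globin, read 4.53, 5.17 and 4.26 and was detected on 2 arrays. Of 10 lymphocyte genes only Cd8a was detected, at 4.99 ± 0.24, and Cd3e, Cd3d, Cd3g and Cd4 were detected on no array. In the granulocyte, mast cell and platelet list 1 of 14 was detected. That gene, Gp9, part of the platelet von Willebrand factor receptor, read 8.00, 8.18 and 7.82, at the 91.1 percentile, while Itga2b, another platelet gene, was detected on no array.

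The lists for other neighbouring tissues were nearly empty. Detected were 1 of 7 osteoclast genes, 1 of 15 skeletal muscle genes, 1 of 10 cartilage genes and 0 of 8 adipocyte genes. The osteoclast gene was Oscar, at 4.55 ± 0.12, and the muscle gene Tnnt1, at 5.10 ± 0.24. The cartilage gene was Sox9, at 8.77 ± 0.24, a transcription factor that epithelial progenitors of many organs express as well. Col2a1, the defining collagen of cartilage, was detected on 1 array.

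Of 12 measured genes for cornified and keratinised oral epithelium, 3 were detected. Krt10, a keratin of cells that have left the basal layer, had a mean of 6.81 ± 0.06. Lor, which encodes loricrin, had a mean of 4.90 ± 0.11. Sprr2a had a mean of 7.73 ± 0.07, but its second probe was detected on no array, at a mean of 4.26. Krt13, Krt4 and Krt6a, keratins of oral mucosa, were detected on no array. In all, 6 of the 20 cell type lists had more than 50% of their measured genes detected. They were the 5 lists of dental epithelium and its layers, and the mural cell list. The ameloblast list, with 58.3%, and the mural list, with 54.5%, each passed that share by 1 gene, where 50.1% of all genes were detected.

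**Figure D2:**
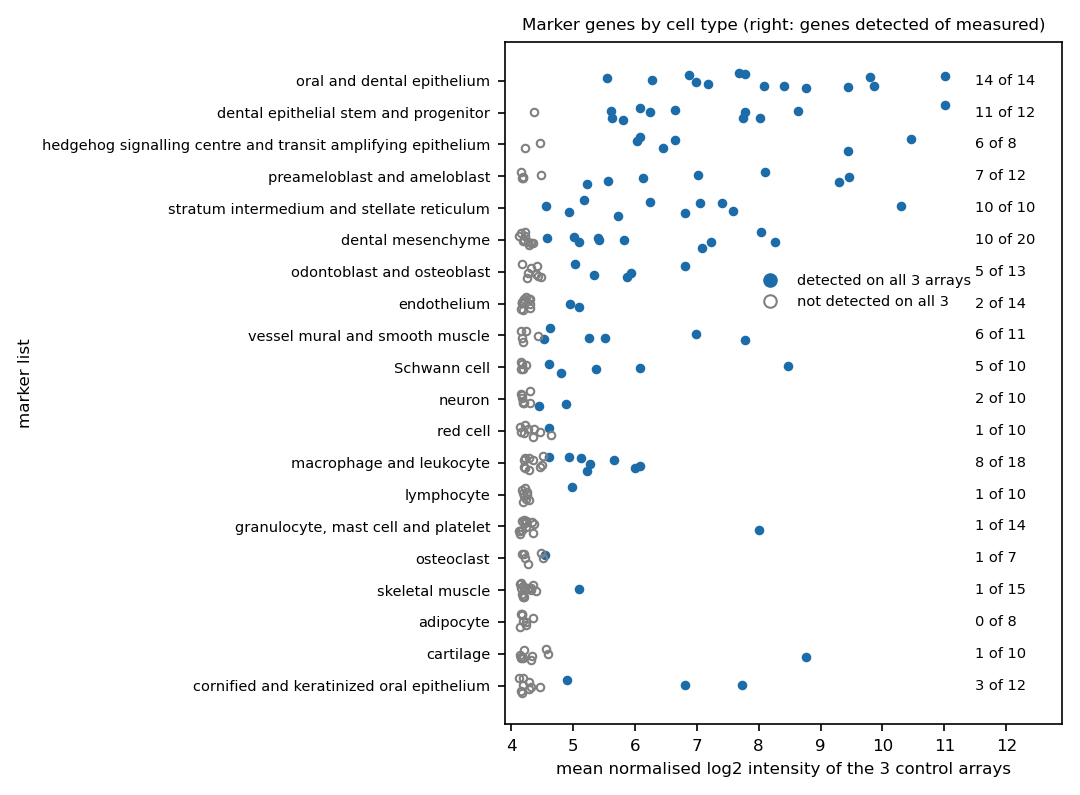
Mean normalised log2 intensity (x axis) of each marker gene, 1 point per gene, in rows by list. Filled points were detected on all 3 arrays and open points were not, and the right-hand text counts genes detected of genes measured. Every row but those of oral and dental epithelium and stratum intermedium has open points near the limit of detection. The rows of dental epithelium and its layers reach 8 or beyond, and that of cornified oral epithelium stops at 7.73. The dental mesenchyme, Schwann cell, cartilage, and granulocyte, mast cell and platelet rows reach 8 too. All endothelial, red cell, lymphocyte, adipocyte and skeletal muscle genes lie at 5.10 or below.

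The tissue expressed the machinery of division. Of 22 G2 and mitosis genes 20 were detected, with a median percentile of 58.6, and of 19 DNA replication genes 18, with 63.4. Uhrf1, which recruits the maintenance DNA methyltransferase, had a mean of 9.05 ± 0.08. Mcm4 and Mcm6, subunits of the replicative helicase, had means of 8.96 ± 0.16 and 8.79 ± 0.09. Each of these levels is that of the brightest probe. The other probes had means of 5.23 for Uhrf1, 5.09 and 5.06 for Mcm4, and 6.45, 6.26 and 5.26 for Mcm6. Plk1, a mitotic kinase, had a mean of 8.21 ± 0.10, and Cenpa, the centromeric histone, 7.96 ± 0.13. The helicase subunit genes Mcm5 and Mcm7 read 8.03 ± 0.11 and 4.79 ± 0.16, each on its own probe.

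Of 11 heat shock and stress genes 10 were detected, with a median percentile of 94.9, and Hmox1 was detected on no array. The chaperones Hsp90ab1 and Hspa5 had means of 9.30 ± 0.09 and 8.87 ± 0.09. Of 17 immediate-early genes, which respond within minutes to stimulation or handling, 8 were detected, near the rate of all genes. Egr1, a zinc finger factor of that group, read 7.86, 7.34 and 8.36. Fos was detected on 2 arrays and read 4.88, 4.27 and 5.94, so replicate 3 was the highest for both. The list as a whole did not share this order. Of its 8 detected genes, 2, 3 and 3 were highest in replicates 1, 2 and 3. The shares of all detected genes were 34.6%, 33.9% and 31.5%. The mean deviations of the 8 from the gene's own mean were 0.002, −0.063 and 0.060 log2.

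The Hippo pathway restrains the coactivators YAP and TAZ, the products of Yap1 and Wwtr1, which act through TEAD factors. Of 19 measured genes of the pathway 13 were detected, against the 50.1% of all genes, with a median percentile of 41.7. Yap1 had a mean of 7.16 ± 0.10, and Wwtr1 of 4.70 ± 0.18, near the limit. Tead2 and Tead1 had means of 7.22 ± 0.06 and 5.36 ± 0.20. The upstream kinase Stk4 and its adaptor Sav1 had means of 6.25 ± 0.06 and 5.58 ± 0.20. The target genes Ctgf and Cyr61 were dim, at 4.83 ± 0.29 and 5.42 ± 0.19, and another, Ankrd1, was detected on no array.

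Among gene families, ribosomal proteins had the highest median. Of 62 ribosomal protein genes 58 were detected, 43 of them in the brightest 10%, and their median percentile was 97.7. Rpl23 read 12.01, 12.12 and 11.84. Of 54 translation factors 52 were detected, and their median percentile was 72.8. Among them were Eef1a1, which delivers transfer RNA to the ribosome, at 10.89 ± 0.02 and Eif4a2, a helicase of initiation, at 10.24 ± 0.00. Ribosomal protein genes have many near-identical copies in the mouse genome, and signal shared with such copies was not tested.

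Energy and protein turnover genes were almost all present. Of 76 oxidative phosphorylation subunits 70 were detected, with a median percentile of 86.6, and of 43 proteasome subunits 41, with 77.2. Cox6b1, a subunit of cytochrome oxidase, had a mean of 9.41 ± 0.04, and Psmd4, a ubiquitin receptor of the proteasome, of 9.54 ± 0.11. Histone genes were detected in 49 of 67 cases with a median percentile of 89.2, led by H3f3b at 9.89 ± 0.06. Of 25 actins and tubulins 18 were detected, with Actb at 11.87 ± 0.12 and Tubb5 at 10.14 ± 0.08.

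Keratins were few, with 11 of 46 detected. Krt14, Krt5 and Krt17 were in the brightest 10%. The simple epithelial keratins Krt18 and Krt8 had means of 7.27 ± 0.03 and 6.57 ± 0.04. Of 21 keratin-associated proteins, which are made in hair, 1 was detected, Krtap9-1, at 4.99 ± 0.11.

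Of 36 collagens 16 were detected, near the rate of all genes, with a median percentile of 48.8. The brightest were Col7a1, of anchoring fibrils, at 7.79 ± 0.10, Col17a1, of hemidesmosomes, at 7.62 ± 0.07, and Col4a1, of basement membranes, at 7.42 ± 0.04. Of 9 laminins 6 were detected, led by Lamb3, a chain of laminin 332, at 7.91 ± 0.10. Of 25 integrins 11 were detected, near the rate of all genes, with Itgb1 at 8.29 ± 0.12. Itga6 and Itgb4, the hemidesmosomal pair, had means of 7.78 ± 0.06 and 7.69 ± 0.10. Of 22 matrix metalloproteases 9 were detected, with the membrane-bound Mmp14 first at 8.33 ± 0.13.

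Of 19 cadherins 4 were detected, below the 50.1% of all genes, Cdh1, Cdh3, Cdh6 and Cdh11. Of 20 claudins, the seal of tight junctions, 10 were detected, at the rate of all genes, with a median percentile of 22.6. Cldn10 was far above the others, at 9.13 ± 0.15, and Cldn12 and Cldn1 followed at 6.94 ± 0.04 and 6.87 ± 0.08. The calcium-binding S100 proteins and annexins had 8 of 15 and 8 of 12 members detected, with S100a11 at 9.18 ± 0.17 and Anxa2 at 9.22 ± 0.05.

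Of 22 FGF ligands 3 were detected, Fgf1 at 6.11 ± 0.12, Fgf9 at 5.06 ± 0.31 and Fgf12 at 4.55 ± 0.13. Of 19 Wnt ligands 9 were detected, near the 50.1% of all genes, led by Wnt3a at 6.72 ± 0.22 and Wnt7b at 6.02 ± 0.25. Wnt7a read 5.04, 5.82 and 6.01, lowest in replicate 1. Of 11 genes named as BMPs 4 were detected, with a median percentile of 60.6. Bmp1, a procollagen protease and no ligand, was first at 7.94 ± 0.09, and the ligands Bmp4 and Bmp7 had means of 6.43 ± 0.32 and 6.07 ± 0.20.

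Among homeobox and Sox factors, 4 of 6 Dlx genes were detected. Dlx2 read 10.02, 10.03 and 10.02, Dlx3 is given above, and Dlx5 and Dlx1 had means of 7.22 ± 0.16 and 7.05 ± 0.04. Of 39 Hox genes, which pattern the trunk and hindbrain but not the jaw, 2 were detected, Hoxa9 at 5.05 ± 0.16 and Hoxc10 at 4.70 ± 0.03. Of 16 Sox genes 6 were detected, with Sox9 and Sox2 the brightest.

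Of 304 solute carriers 143 were detected, close to the rate of all genes. Slc12a2, which encodes the sodium, potassium and chloride cotransporter NKCC1, read 10.30, 9.94 and 10.03, and Slc6a6, the taurine transporter, had a mean of 10.01 ± 0.16. Of 254 genes with a Zfp symbol 178 were detected, with a median percentile of 39.2, led by Zfp36l1, an RNA-binding protein, at 9.37 ± 0.07. Of 75 cytochromes P450 12 were detected.

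Receptor families restricted to sensory organs serve as a background for the detection call. Of 1075 olfactory receptors 20 were detected, or 1.86%, with a median percentile of 6.50, and 957 were detected on no array. Of 170 vomeronasal and taste receptors 1 was detected, and of 46 defensins 2.

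**Figure D3:**
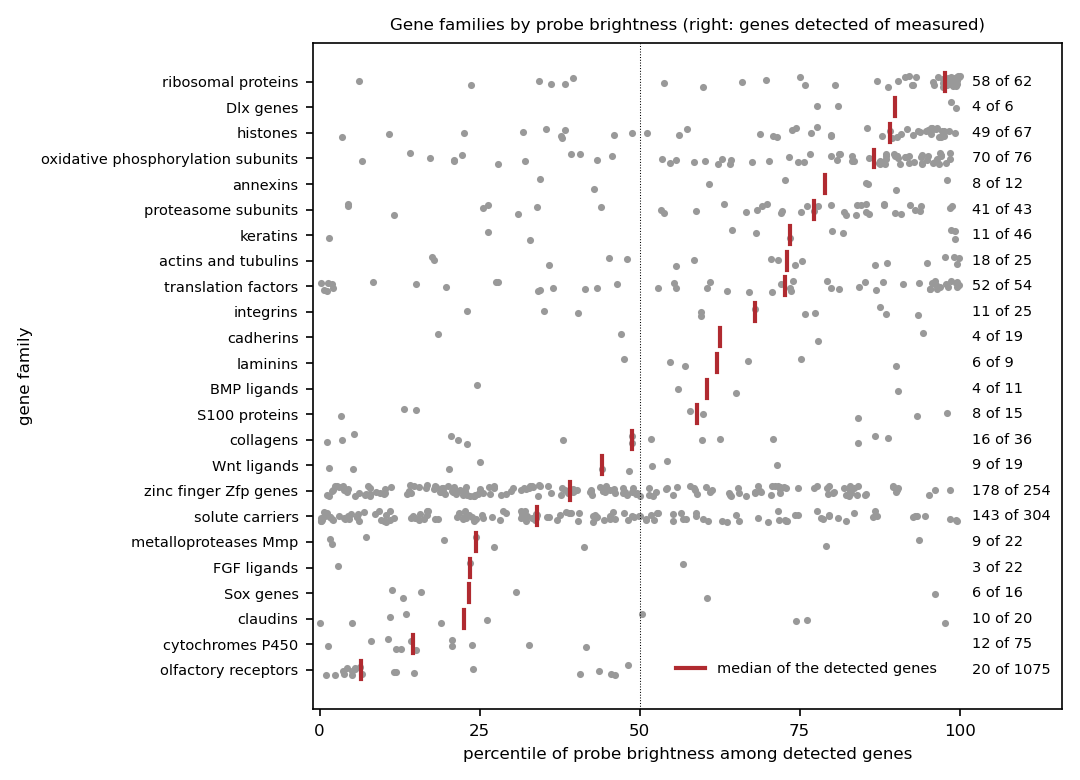
Percentile of probe brightness among the 9079 detected genes (x axis) for the detected members of each family, 1 grey point per gene, with a red bar at the family median and the counts detected of measured at the right. Families with fewer than 3 detected members are left out. Ribosomal proteins sit furthest right with a median of 97.7, and olfactory receptors furthest left with 6.50.

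The brightest probe on every array was that of Ctcfl, a paralogue of the insulator protein CTCF known from the male germ line. It had 1 probe, at 12.39 ± 0.00, where the SD is 0 because quantile normalisation gives the top probe of each array the same value. The 25 brightest genes also held Rpl23, Actb, Eef1a1, Rplp1 and Rpl39, and the signalling genes Vangl2, Ctnnb1 and Shh. Ctnnb1 encodes beta-catenin, and Vangl2 a planar cell polarity protein.

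Several of the brightest genes rested on a single probe. Rchy1, a ubiquitin ligase, read 12.12, 12.01 and 12.12 on its brightest probe and had a mean of 6.34 on its other. Siglece, a sialic acid receptor of myeloid cells, had a mean of 10.65 ± 0.13 on 1 probe, and its 2 other probes were detected on no array. Sip1, Terf2ip and Ptrh2 had brightest probes at 11.50, 11.33 and 11.20, and no other probe of theirs had a mean above 5.69.

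Vangl2 showed the same gap, with means of 10.54 and 4.37, and so did Chka, choline kinase alpha, with 10.52, 5.38 and 4.46. By contrast the 3 probes of Ctnnb1 had means of 10.49, 10.24 and 10.13, and the 2 probes of Shh 10.46 and 9.27. Of the 25 brightest genes 16 had 2 or more probes, and in 10 of the 16 a probe lay over 4 log2 units below the brightest, against 2.43% of all detected genes with several probes. Only the choice of the brightest probe was used to rank them, so the ranks of those 10 genes are those of 1 probe each.

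Over all genes the probes of a gene often differed. Of 2362 genes with 2 or more detected probes, the median gap between the brightest and the dimmest was 0.83 log2, and 43.1% had a gap over 1. The gap is a difference between extremes and is not on a par with an SD, whose median over arrays was 0.124 per gene. For the same probe, the median absolute difference between 2 arrays was 0.138 to 0.142.

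The spread between replicates was small for most probes. Over the 12445 detected probes the median SD was 0.123 log2, the quartiles were 0.0785 and 0.178, and 24 probes, or 0.193%, had an SD over 0.5. The median absolute difference between 2 arrays was 0.142 for replicates 1 and 2 on the same chip, and 0.142 and 0.138 for the pairs across chips. A difference over 1 log2 was found for 15 probes between replicates 1 and 2, and for 4 and 3 in the other pairs.

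By level, the median SD rose from 0.105 in the dimmest of 10 equal groups of detected probes to 0.137 in the next and fell to 0.112 in the brightest. Without background correction the median SD rose instead, from 0.0312 in the dimmest group to 0.0955 in the brightest. The course of the SD by level therefore depends on that step. Over all detected probes the uncorrected median SD was 0.0570, against a median standard error between beads of one probe of 0.0462 on the log2 scale.

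**Figure D4:**
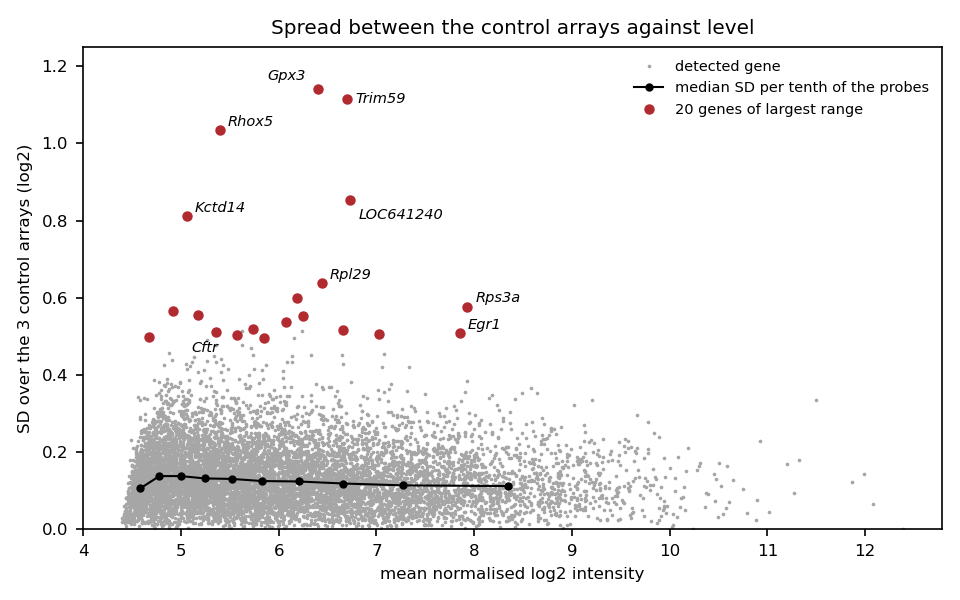
SD over the 3 control arrays (y axis, log2) against mean normalised log2 intensity (x axis), with 1 grey point per detected gene, the 20 genes of largest range in red, and the median SD in 10 equal groups of probes ordered by level as a black line. The line stays between 0.105 and 0.137, and Gpx3, Trim59 and Rhox5 stand highest with SDs of 1.14, 1.12 and 1.03.

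The 3 genes of largest range belonged to none of the lists. Trim59, a tripartite motif protein, read 7.61, 5.45 and 7.02, low in replicate 2. Gpx3, a secreted glutathione peroxidase, read 5.08, 7.14 and 6.96, low in replicate 1. Rhox5, an X-linked homeobox gene known from reproductive tissue, read 6.58, 4.70 and 4.90, high in replicate 1.

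The next in range were LOC641240 at 7.52, 5.83 and 6.83, Kctd14 at 5.98, 4.75 and 4.44, and Rpl29 at 5.78, 7.05 and 6.48. The second probe of Rpl29, detected on 2 arrays at 4.16, 5.19 and 4.55, had the same order of replicates. Rps3a read 7.27, 8.37 and 8.13. Egr1 and Cftr, described above, were also among the 20 genes of largest range, which reached down to 0.98. Other members of the 20 were Prcp, Rassf10, Camk4, Atp2c1, Rad51c, Eef1a2, Trim68, Dnajc6, Zfp187, Atg4c and Epb7.2, the last on a probe detected on 2 arrays. For Atp2c1 the second probe did not show the range, at 5.49, 5.51 and 5.53, against 5.62, 6.66 and 6.47 for the first. In the brightest 10%, Eif4a2, Wdr77, LOC100045697 and Dlx2 had, with Ctcfl, the smallest SDs. For Eif4a2, too, the SD of 0 follows from an equal rank on the 3 arrays, since its deposited intensities were 1172, 1277 and 1368.

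Some gene lists were displaced together in 1 replicate, which is given as a description of these samples with no test, since the lists were singled out by their displacement. In bulk tissue a larger share of a cell type and more RNA per cell cannot be told apart. All 8 detected macrophage and leukocyte genes were highest in replicate 1, against 34.6% of all detected genes, and their mean deviation from the gene's own mean was 0.23, −0.18 and −0.05 log2 in replicates 1, 2 and 3. Aif1, a calcium-binding protein of macrophages, read 6.08, 5.39 and 5.53, and a second probe of it gave 5.45, 5.06 and 5.32. Members of the list detected on only 2 arrays were not uniform. Cd68 and C1qa were highest in replicate 3 and Cd53 in replicate 1, all near the limit of detection.

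Of the 7 detected ameloblast genes, 6 were highest in replicate 2, against 33.9% of all detected genes, with mean deviations of −0.16, 0.23 and −0.07. Of the 5 odontoblast and osteoblast genes, 3 were highest in replicate 2 and 2 in replicate 3, against 31.5% of all detected genes for the latter, with mean deviations of −0.19, 0.21 and −0.01.

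Of 10 stratum intermedium and stellate reticulum genes 0 were highest in replicate 1, against 34.6% of all detected genes. Their mean deviations were −0.13, 0.05 and 0.09. Of 58 ribosomal protein genes, 3 were highest in replicate 1, against the same 34.6%, with mean deviations of −0.10, 0.04 and 0.06. The oral and dental epithelium list showed no such displacement, with deviations within 0.01 on every array. Replicates 1 and 2, which shared a chip, lay on opposite sides of 0 for the macrophage, ameloblast, odontoblast, stratum intermedium and ribosomal lists. For other lists they lay on the same side. Stress and heat shock genes had mean deviations of −0.03, −0.03 and 0.06, and translation factors −0.01, −0.01 and 0.02. Only replicate 3 was on the other chip, so chip and replicate cannot be told apart.

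**Figure D5:**
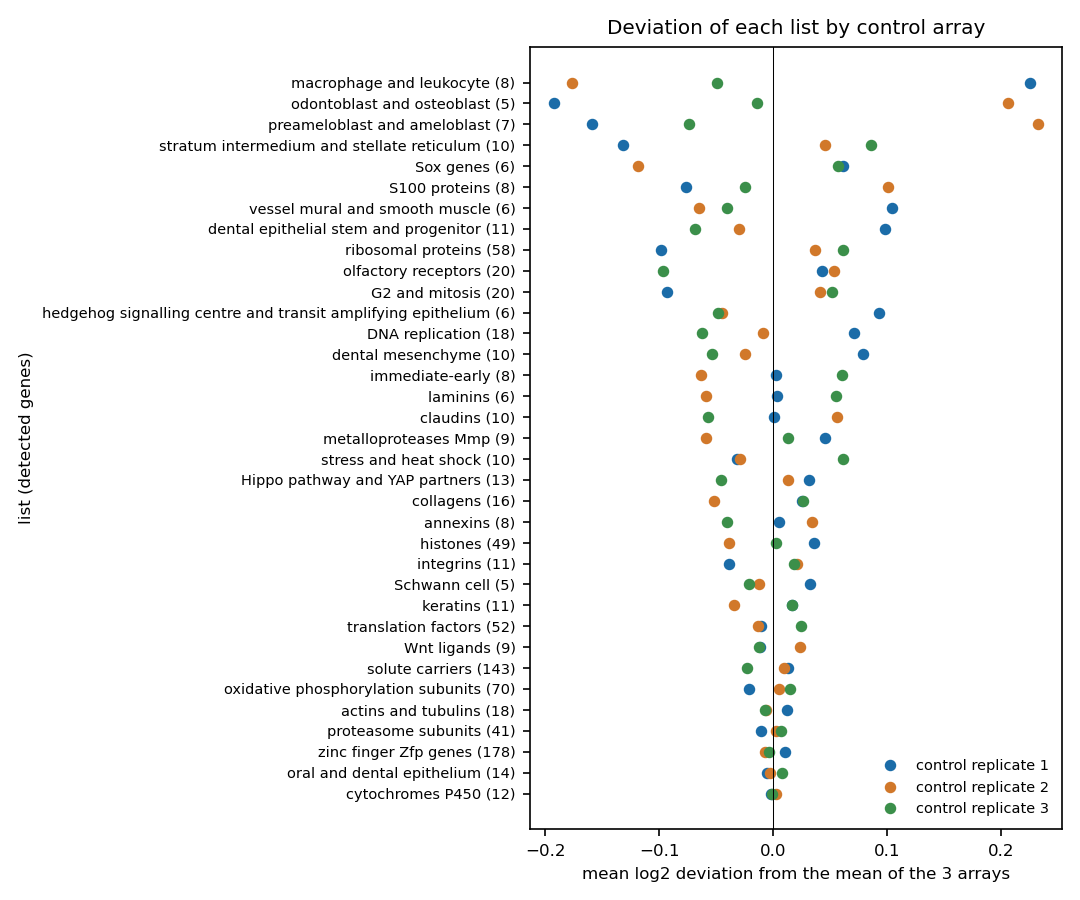
Mean deviation of the detected members of each list from the gene's own mean over the 3 arrays (x axis, log2), with 1 point per control replicate, for each list with 5 or more detected genes. Macrophage genes stand at 0.23 in replicate 1 and ameloblast genes at 0.23 in replicate 2, while oral and dental epithelium lies within 0.01 of 0 in all 3.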

How the data were processed

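RNA of 7 labial cervical loop samples was purified with a micro column kit, amplified to biotinylated cRNA and hybridised to Illumina mouse bead arrays, per the labels' protocols. Per the file headers, the authors deposited for each array and probe an average intensity, a detection p-value, the standard error between beads and the bead number. The scanner software and any background step behind the intensities are not stated by the headers or labels. The deposited log2 values, which the authors normalised by a method that the headers do not name, served as an alternative; those of the value table and of the comparison table were equal within 5e-09.

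Only the 3 control arrays were used. Each column was matched to its sample by name, and 0 columns belonged to no sample. Detection required p under 0.05 on all 3. Ranks used the mean log2 of the deposited intensity. Levels and SDs used limma 3.58.1 in R 4.3.3 (normexp with negative controls inferred from detection p-values, offset 16, then quantile normalisation), and summaries used Python 3.11.15 with pandas 2.3.3 and numpy 2.4.6. The SD step was tested on simulated data. No p-value was computed, since 1 group is described. The number of arrays limits the precision.

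Of the 18138 symbols on the array, 14307 are current RefSeq symbols, 2906 are synonyms of 1 gene, 49 of several, and 876 matched none. They are printed as the array gives them. Listed genes with no matching symbol, such as Epcam, Gli2, Amtn, Odam, Msx2, Sox10 and Mki67, were not analysed here.

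Members and lists were chosen with earlier results of these data known. Families were taken by symbol pattern, and 29 symbols of other proteins that matched a pattern were left out after the members were seen. The genes named are 6 markers, the 25 brightest, up to 4 of the highest members per list and up to 3 not detected on any array, the 20 of largest range, the 5 of smallest SD in the brightest 10%, and list members with an SD above the 95th percentile, of which those with most bearing are printed. Other genes were added for their role after their values were seen. Alternatives were another detection threshold, 2 of 3 arrays, other background corrections and normalisations, other rankings, the median over probes and leaving out each replicate.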

Additional observations from a re-analysis of the deposited data

How the results depend on the processing

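The number of detected probes, 12445, was 10655 at a detection p-value under 0.01, 13830 when 2 of the 3 arrays sufficed, and 12724 to 13096 over the 3 pairs left by leaving out 1 replicate, where fewer arrays have to pass. The count of cell type lists with more than 50% of genes detected, 6, was 5 at 0.01 and 6 to 8 with 1 replicate left out. The median SD of 0.123 moved with the scale, the set of probes and the number of arrays. It was 0.141 with median scaling, 0.0570 without background correction, 0.0737 with an offset of 50, 0.0967 with no normalisation, 0.0506 on the authors' deposited log2 values, 0.0890 over all probes, and 0.0978 to 0.101 with 1 replicate left out. A larger offset and omitting the background correction both compress differences between arrays, so an SD holds only on its own scale. Across lists and families, the number of genes detected stayed within 1.5 times under 239 alternatives and left that range under 26, mostly in lists with few detected genes. Red cell genes numbered 0 at 0.01 and 3 without replicate 3. The detected olfactory receptors numbered 8 at 0.01 and 36 when 2 arrays sufficed. The median percentile of a list moved under 64 of 240 alternatives, 29 of them with the median over the probes of a gene in place of the brightest. The sign of the mean deviation was examined in 1 replicate for each of the macrophage, odontoblast, ameloblast, immediate-early, stratum intermedium and ribosomal lists. It was kept under all 5 other scales. The replicates were chosen after seeing the data. For the immediate-early list it was replicate 3, where the mean deviation was 0.060. The sensitivity of single genes near 4.4 is limited by signal over background. No paired analysis was possible because only the control group was described and no result came from a test.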

Other observations

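Transcripts of both sex chromosomes were measured on every control array. Xist, the RNA that coats the inactive X chromosome, read 8.35, 7.60 and 7.83 in replicates 1, 2 and 3, and a second probe gave 7.78, 7.46 and 7.50. The Y-linked genes Ddx3y and Eif2s3y read 7.09, 7.54 and 6.99, and 5.89, 6.08 and 5.93. The Y-linked genes Uty and Jarid1d were detected on all 3 arrays with means of 4.88 ± 0.10 and 5.11 ± 0.43. Xist was highest in replicate 1 and Ddx3y in replicate 2. The labels give no sex and do not say how many animals each sample holds.

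Several of the 25 brightest symbols are array models with no current gene of that name. EG668668 and EG625054 are given by RefSeq as synonyms of Gm9294 and Gm6548, both pseudogenes, and read 10.79 ± 0.04 and 10.47 ± 0.07. C330021F23Rik, now Rps23rg1, read 10.68, 10.96 and 11.13. LOC100047998 and LOC100044779 had means of 11.27 ± 0.09 and 10.89 ± 0.07. Each of these 5 had 1 probe, so no second probe of the same model could be set beside it.

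Gpc3, a cell surface proteoglycan, ranked 24 among all genes, at 10.59, 10.33 and 10.49, and its second probe had a mean of 8.51 ± 0.10. Morf4l2, a chromatin protein, had a mean of 10.61 ± 0.07, and Hnrpm, an RNA-binding protein, 10.50 ± 0.17 with its other 2 probes at 9.71 and 9.31.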
